A study of Mus musculus with 14 samples.

Results

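The 38 Hox genes described here are the homeobox genes of the HoxA, HoxB, HoxC and HoxD clusters that the annotation of the array names, out of 21893 named genes. They were taken by membership of a cluster and not by their values: 10 lie in HoxA on mouse chromosome 6, 10 in HoxB on chromosome 11, 9 in HoxC on chromosome 15 and 9 in HoxD on chromosome 2. Where several probes named a gene, the probe with the highest mean over the 14 arrays stood for it. The groups were skeletal muscle of Cugbp1 knockout (KO) mice (3 arrays), skeletal muscle of wild-type (WT) mice (3 arrays), brain of KO mice (4 arrays) and brain of WT mice (4 arrays). All mice were on the C57BL6 background, untreated and 1 day old. Cugbp1, now named Celf1, encodes a protein that binds RNA and controls splicing, decay and translation of its targets, and the KO line carries a gene trap inserted ahead of the start codon, in ES cells that were injected into C57BL6 mice. The labels name neither the muscles nor the brain regions taken, and they do not say whether the arrays of a group came from separate animals, so the p-values measure only the spread between these samples.

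Hox genes encode homeodomain transcription factors that give cells their position along the head to tail axis and along the limbs. Within a cluster the genes are ordered so that the first paralogue groups reach furthest forward, to the hindbrain, while the last ones are used in the lumbar to caudal trunk and in the limbs. Genes with the same number in different clusters are paralogues and often act together. In the nervous system their normal domain covers the hindbrain and spinal cord, and the forebrain and midbrain lie ahead of it. In muscle tissue, Hox transcripts of muscle cells and of connective tissue keep a record of where along the body a muscle formed.

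To show what the gene starts of contrasting members look like, promoter windows of 300 bases (250 before and 50 after the start) are printed from RefSeq, assembly GRCm38.p6. The table of windows held 22 of the 38 members, with 24 windows. Hoxd8 and Hoxd9 are shown because they were above background on every muscle array and on no brain array, and Hoxb8 and Hoxd4 because they were above background in both tissues. All 4 lie on the plus strand, at chr2:74704365-74704664 for Hoxd8, chr2:74697513-74697812 for Hoxd9, chr11:96281655-96281954 for Hoxb8 and chr2:74721728-74722027 for Hoxd4. Capitals mark matches, on either strand, to TGATNNAT, the letters of a Hox site joined to a Pbx site, to TTTATNG, a form bound by Cdx and posterior Hox proteins, and to TATAAA, which overlaps TTTATNG in TTTATAG.
Hoxd8: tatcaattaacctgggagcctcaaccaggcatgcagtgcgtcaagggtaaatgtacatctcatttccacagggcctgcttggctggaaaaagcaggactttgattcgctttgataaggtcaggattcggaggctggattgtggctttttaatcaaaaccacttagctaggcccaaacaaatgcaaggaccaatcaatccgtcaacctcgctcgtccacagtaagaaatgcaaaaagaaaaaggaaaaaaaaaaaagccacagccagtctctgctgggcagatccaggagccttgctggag
Hoxd9: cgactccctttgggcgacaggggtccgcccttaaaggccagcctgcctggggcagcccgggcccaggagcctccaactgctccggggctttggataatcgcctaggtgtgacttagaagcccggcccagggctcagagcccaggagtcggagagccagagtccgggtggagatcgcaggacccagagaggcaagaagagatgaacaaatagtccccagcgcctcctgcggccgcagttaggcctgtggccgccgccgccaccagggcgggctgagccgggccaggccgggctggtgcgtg
Hoxb8: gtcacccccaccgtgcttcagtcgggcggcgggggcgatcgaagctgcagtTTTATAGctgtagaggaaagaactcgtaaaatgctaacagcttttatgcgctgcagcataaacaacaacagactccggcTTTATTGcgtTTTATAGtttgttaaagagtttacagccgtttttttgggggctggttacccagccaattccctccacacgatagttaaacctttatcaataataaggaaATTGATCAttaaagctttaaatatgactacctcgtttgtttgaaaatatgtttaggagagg
Hoxd4: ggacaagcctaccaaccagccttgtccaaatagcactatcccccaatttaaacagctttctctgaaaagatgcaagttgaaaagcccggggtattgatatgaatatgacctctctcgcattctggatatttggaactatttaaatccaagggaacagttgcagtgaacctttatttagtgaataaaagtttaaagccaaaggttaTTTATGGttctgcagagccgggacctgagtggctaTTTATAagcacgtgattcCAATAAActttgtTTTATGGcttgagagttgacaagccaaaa
The Hoxb8 window held 3 matches to TTTATNG, 2 to TATAAA and 1 to TGATNNAT, the Hoxd4 window held 3, 1 and 0 of them, and the windows of Hoxd8 and Hoxd9 held none. No other member window held TTTATNG. The windows of Hoxa3, Hoxa5, Hoxb4 and Hoxc4, also above background in both tissues, held none of the motifs. For Hoxa10, above background in muscle alone, 1 window held a match to TATAAA. The windows shown are therefore single examples and do not give a contrast between the 2 sets of genes. Over the 24 member windows, TTTATNG occurred in 8.33%, TATAAA in 16.7% and TGATNNAT in 16.7%, against 10.9%, 13.6% and 8.85% of 32851 windows of all genes. The member windows had a median of 14.5 CG pairs, against 7 in all windows.

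Values below are scaled intensities, the deposited intensities multiplied so that every array has the same 75th percentile over named probes, 1115. Deposited 75th percentiles ranged from 883 to 1398 between arrays. Background was set on each array at the 95th percentile of 1358 olfactory and vomeronasal receptor genes, and lay at 33.0 to 64.1 on muscle arrays and 23.6 to 36.3 on brain arrays. The trapped gene fitted the labels in direction on every array: Celf1 read 829.5, 454 and 526 on the KO muscle arrays, against 3918, 4556 and 3540.2 on the WT muscle arrays, and 1804, 1719.7, 1656 and 1589.6 on the KO brain arrays, against 5482, 5552, 5416 and 5671 on the WT brain arrays. The Celf1 difference was -2.77 ± 0.30 (adjusted p = 0.312) in muscle and -1.71 ± 0.08 (adjusted p = 0.000534) in brain on the log2 scale, so the muscle difference did not pass adjustment over all genes. Of 14 genes that define skeletal muscle (Acta1, Tnnt3, Tnni2 and Myog among them), 13 were higher in muscle on the KO arrays and 14 on the WT arrays at the test used below. Of 12 that define neurons (Elavl3, Slc17a6, Syt1 and Neurod1 among them), 11 were lower in muscle on either set of arrays, and Snap25 was the exception. KO array 1 of the brain stood apart from the other brain arrays in the Hox genes. KO array 2 of the muscle was the muscle array most often lowest over all genes. The KO comparisons are therefore given with and without these arrays.

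More Hox genes were measurable in muscle than in brain, and the excess lay in the later paralogue groups. Above background on every array of the group were 24 of 38 members in KO muscle, 23 in WT muscle, 14 in KO brain and 14 in WT brain. Over all named genes the shares were 61.7%, 61.0%, 65.4% and 66.2%, and the members' shares were 63.2%, 60.5%, 36.8% and 36.8%. Of the 16 members of paralogue groups 9 to 13, 6 were measured in KO muscle and 7 in WT muscle, and 0 in either brain group. Of the 14 members of groups 1 to 5, 11 were measured in KO muscle, 10 in WT muscle, 12 in KO brain and 11 in WT brain. In all, 12 members were above background on all 14 arrays: Hoxa2, Hoxa3, Hoxa4, Hoxa5, Hoxb2, Hoxb3, Hoxb4, Hoxb5, Hoxb6, Hoxb8, Hoxc4 and Hoxd4. Another 6 (Hoxa10, Hoxb9, Hoxc9, Hoxc10, Hoxd8 and Hoxd9) were above it on every muscle array and on no brain array. With background at the 99th percentile of the receptor genes, 11, 10, 4 and 4 members were above it on every array of KO muscle, WT muscle, KO brain and WT brain.

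**Figure D1:**
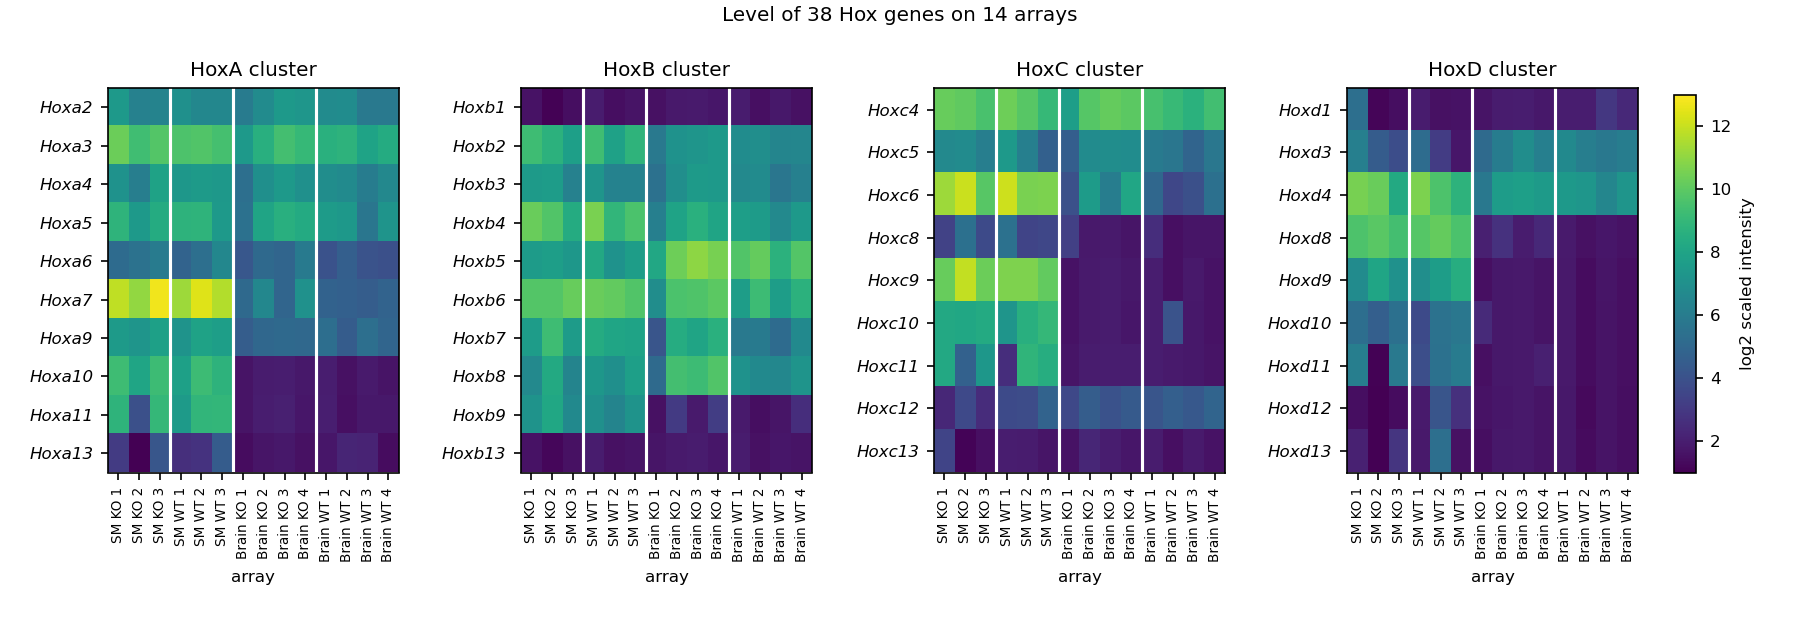
Log2 scaled intensity (colour) of the 38 Hox genes on the 14 arrays, with 1 panel per cluster, genes from paralogue group 1 at the top to 13 at the bottom, and arrays in the order KO muscle (SM KO), WT muscle (SM WT), KO brain, WT brain, split by white lines. In each cluster the lower rows are dark in brain, and Brain KO 1 is darker than the other brain arrays in most rows that carry signal there.

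Tissues were compared within each genotype, so that the KO arrays and the WT arrays give the muscle minus brain difference in separate samples. Tests were limma fits over all 21893 named genes with Benjamini-Hochberg adjustment and a threshold of 0.05, and log2 differences are given ± SE. On the KO arrays 15 of the 38 members were higher in muscle and 2 were lower, where 31.3% of all genes were higher and 28.1% lower. On the WT arrays 24 members were higher in muscle and 2 lower, where 29.5% of all genes were higher and 25.3% lower. The members' median log2 difference was 1.01 on KO arrays and 1.57 on WT arrays, against -0.0447 and 0.0395 over all genes. Many brain values lay under background, where a log2 difference has no measured size: with 50 added to every intensity the members' medians were 0.493 and 0.864. With members that were below background throughout 1 tissue at their bound, and those without a bound above 1 or below background in both tissues left out, the medians were 1.42 over 28 members and 1.75 over 29. Leaving members out in this way removes those without a clear difference, which raises the median. These medians are thus no check on the effect of background. All 15 members called higher on the KO arrays were among the 24 on the WT arrays, and Hoxb5 was called lower on both. The arrays of the tissues did not overlap for 15 members higher and 3 lower in KO muscle, where 32.2% and 32.5% of all genes did not, and for 24 higher and 3 lower in WT muscle, where 30.6% and 26.4% did not. Genes of other cell types differed between the tissues as well: 13 of 14 connective tissue fibroblast genes were higher in muscle on KO arrays and 13 on WT arrays, with summed levels of 462248 to 692830 in KO muscle against 26090 to 49040 in KO brain and of 597139 to 799651 in WT muscle against 29204 to 59965 in WT brain. Of 9 brown fat and adipocyte genes, 8 were higher in muscle on KO arrays and 9 on WT arrays. Their part in the Hox differences was not tested. In bulk tissue, fewer cells of a type and less RNA per cell cannot be told apart.

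The posterior end of the clusters, from group 9 on, held most of the genes with signal in muscle and none above background in brain. Hoxc9, which sets the thoracic motor columns of the spinal cord, read 1166, 3790.5 and 1274 in KO muscle and 1655, 1649.5 and 1127 in WT muscle, and 3.04 to 3.83 in KO brain and 2.83 to 3.91 in WT brain. It was higher in muscle on KO arrays (adjusted p = 1.49e-06) and on WT arrays (adjusted p = 1.12e-07). Because Hoxc9 was not above background on any brain array, its fold is a bound, set against the background level of each brain array: at least 56.8-fold higher in KO muscle and at least 49.4-fold higher in WT muscle. Its paralogues Hoxd9 and Hoxb9 lay in muscle at 109 to 266 and 104 to 283 on KO arrays, and at 122 to 356 and 86.1 to 143 on WT arrays. They were at least 5.04-fold and at least 5.13-fold higher in muscle on KO arrays, and at least 7.05-fold and at least 3.99-fold higher on WT arrays. Hoxb9 read 2.90, 8.27, 3.60 and 9.18 in KO brain and 3.63, 2.70, 3.22 and 5.91 in WT brain, below background throughout.

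Hoxa9 was the member of group 9 with brain values near background. It read 184, 155 and 229 in KO muscle and 144, 245 and 211 in WT muscle, and 23.5, 32.5, 34.5 and 33.1 in KO brain and 40.7, 22.6, 42.02 and 30.6 in WT brain, where 1 of 4 KO arrays and 3 of 4 WT arrays were above background. Its difference was 2.61 ± 0.20 (adjusted p = 2.4e-05) on KO arrays and 2.57 ± 0.29 (adjusted p = 0.000158) on WT arrays, sizes that rest in part on brain values under background. A further Hoxa9 probe was higher in muscle too, and since it lay below background on every brain array, the sizes are not compared.

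Group 10 genes, which shape the lumbar region and the upper hindlimb skeleton, were the next set. Hoxa10 read 627, 264 and 603 in KO muscle and 224, 602 and 432 in WT muscle, and no brain array exceeded 3.87. Hoxc10 read 305, 285 and 328 in KO muscle and 151, 374 and 503 in WT muscle, and its brain values were 3.01 to 3.75 on KO arrays and 3.03 to 16.8 on WT arrays. Muscle was at least 14.8-fold higher for Hoxa10 and at least 9.76-fold higher for Hoxc10 on KO arrays (adjusted p = 1.46e-06 and 7.67e-08). On WT arrays the bounds were 13.2-fold and 10.4-fold (adjusted p = 1.65e-06 and 0.000166). Hoxd10, a gene of lumbar motor neurons, lay near background: 40.1, 25.05 and 43.0 in KO muscle and 12.8, 46.3 and 54.2 in WT muscle, with 1 array of each group above background.

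Group 11 genes act in the sacral region, the kidney and the middle segment of the limb, and each varied widely between muscle arrays. Hoxa11 read 452, 15.1 and 512 in KO muscle and 187, 476 and 500.0 in WT muscle. Hoxc11 read 305, 26.3 and 164 in KO muscle and 5.85, 468 and 357 in WT muscle. Hoxd11 read 70.5, 2.09 and 57.5 in KO muscle and 14.6, 44.0 and 62.8 in WT muscle. KO array 2 was the low one in KO muscle for all 3 genes, and WT array 1 was the low one in WT muscle for all 3. In brain none of the 3 genes exceeded 4.14 on any array. Against the background of the brain arrays, Hoxa11 was at least 12.04-fold higher in WT muscle (adjusted p = 2.85e-06). Hoxa11 was called higher in KO muscle too (adjusted p = 0.00499), and Hoxc11 in KO and WT muscle (adjusted p = 0.000837 and 0.0194). In each of these 3 cases 1 of the 3 muscle arrays lay under background, so no bound on the fold is given. Without WT muscle array 2 or 3 the WT adjusted p of Hoxc11 was 0.0709 and 0.0679. Hoxd11, above background on 1 of 3 arrays in either muscle group, passed on WT arrays (adjusted p = 0.000356) and did not on KO arrays (adjusted p = 0.0876). Without KO muscle array 2 its KO adjusted p was 9.07e-06. With most of its muscle values under background, the Hoxd11 difference has no measured size.

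Groups 12 and 13, which pattern the ends of the limbs, the tail and the genital region, were at or near background in all groups. Hoxa13, Hoxb13, Hoxc12, Hoxc13 and Hoxd12 were above background on no array, and neither was Hoxb1 of group 1. Hoxd13 was above it on WT muscle array 2 alone, at 41.3, and Hoxd1 on KO muscle array 1 alone, at 41.4. Of these faint genes 3 still passed the tissue test, Hoxa13 and Hoxd12 as higher on WT arrays and Hoxc12 as lower on KO arrays. Their values of 6.23 to 22.5, 3.60 to 17.8 and 5.01 to 12.5 in the muscle groups concerned do not give a measured level.

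In groups 6 to 8, used mainly in the thoracic region, the members split into muscle genes and genes with brain signal. Hoxd8 read 801, 986 and 677 in KO muscle and 908, 1132 and 785 in WT muscle, and 4.18, 6.53, 3.76 and 5.14 in KO brain and 3.70, 2.92, 3.28 and 3.00 in WT brain. It was thus at least 25.9-fold higher in KO muscle and at least 31.6-fold higher in WT muscle (adjusted p = 3.19e-07 and 1.11e-07). Hoxa7, which acts on thoracic vertebrae, read 3727, 2154 and 6930.2 in KO muscle and 2454, 5413 and 3124 in WT muscle. In brain Hoxa7 read 34.0, 94.3, 30.1 and 132 on KO arrays and 27.1, 25.7, 23.4 and 28.4 on WT arrays, with 3 KO arrays and 1 WT array above background. Its difference was 5.997 ± 0.63 (adjusted p = 0.000116) on KO arrays and 7.05 ± 0.28 (adjusted p = 6.13e-07) on WT arrays. With brain values partly under background, these differences have no measured size.

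Hoxc6, a gene of the brachial motor neurons that supply the forelimb, was above background on every muscle array and uneven in brain. It read 2428, 4275 and 933 in KO muscle and 4412, 1529 and 1577 in WT muscle, and 15.8, 192, 68.4 and 271 in KO brain and 32.0, 11.8, 15.0 and 42.6 in WT brain. The tissue difference was 4.62 ± 1.01 (adjusted p = 0.0054) on KO arrays and 6.63 ± 0.56 (adjusted p = 3.28e-05) on WT arrays. Only 3 of 4 KO and 2 of 4 WT brain arrays were above background for Hoxc6, so these differences have no measured size. Hoxc8, a gene of brachial motor pools, stayed mostly under background, with KO muscle array 2 at 43.4 and WT muscle array 1 at 44.6 as its only values above it. Hoxa6 read 36.5, 45.3 and 63.0 in KO muscle and 28.1, 42.01 and 93.3 in WT muscle, and 18.9, 34.7, 30.4 and 61.2 in KO brain and 16.0, 25.1, 16.8 and 15.5 in WT brain. Only Brain KO 4 was above background for Hoxa6 in brain.

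The HoxB genes of groups 6 to 8 carried signal in both tissues. Hoxb6 read 887, 894 and 1188 in KO muscle and 1207, 1128 and 865 in WT muscle, and 119.9, 787, 839 and 1017 in KO brain and 208, 594, 202 and 416 in WT brain. Hoxb7 read 199, 613 and 190.0 in KO muscle and 331, 269 and 252 in WT muscle, and 18.2, 347, 255 and 389.9 in KO brain and 57.7, 61.1, 36.3 and 105 in WT brain. On WT arrays muscle and brain did not overlap for either gene, and both were higher in muscle, by 1.73 ± 0.41 (adjusted p = 0.00773) for Hoxb6 and 2.22 ± 0.34 (adjusted p = 0.000888) for Hoxb7. On KO arrays the tissues overlapped, and the differences were 0.88 ± 0.72 (adjusted p = 0.318) and 0.85 ± 1.10 (adjusted p = 0.525), where that of Hoxb7 became -0.19 without Brain KO 1. Hoxb8, which acts in the dorsal spinal cord and whose loss causes excessive grooming in mice, read 102, 317 and 85.9 in KO muscle and 166, 126 and 216 in WT muscle. In brain it read 35.3, 679.9, 603 and 854 on KO arrays and 141, 103, 93.1 and 149.7 on WT arrays. Its tissue difference was -1.25 ± 1.15 (adjusted p = 0.37) on KO arrays and 0.47 ± 0.26 (adjusted p = 0.172) on WT arrays. Without Brain KO 1, the KO difference of Hoxb8 was -2.33 (adjusted p = 0.00813), lower in muscle.

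Groups 1 to 5, the genes of the hindbrain, neck and upper trunk, held the members with the most alike tissue levels. They also held the 2 members called lower in muscle on WT arrays. Hoxb5, which acts in neural crest of the gut and in placing the forelimb, read 195, 212 and 161 in KO muscle and 305, 139.7 and 202 in WT muscle, against 289.9, 1291, 2015 and 1507 in KO brain and 865, 1164, 415 and 894 in WT brain. Muscle and brain did not overlap in either genotype, and Hoxb5 was lower in muscle, with differences of -2.46 ± 0.63 (adjusted p = 0.0112) on KO arrays and -1.93 ± 0.40 (adjusted p = 0.00426) on WT arrays. Hoxd3 read 73.4, 22.6 and 14.3 in KO muscle and 37.3, 8.74 and 3.28 in WT muscle, against 35.0, 66.2, 116 and 72.4 in KO brain and 103, 69.6, 55.4 and 68.8 in WT brain. It was lower in muscle on WT arrays (-2.82 ± 0.73, adjusted p = 0.0118) and did not pass on KO arrays (-1.21 ± 0.61, adjusted p = 0.119), where it did without KO muscle array 1 (-1.89, adjusted p = 0.0152). Hoxd3 was above background on only 1 of 3 arrays in either muscle group, so these differences have no measured size.

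Group 4 genes, which act from the caudal hindbrain into the neck, were measured on every array. Hoxd4 read 1497, 1239 and 316 in KO muscle and 1568, 811 and 427 in WT muscle, and 55.2, 195, 217 and 186 in KO brain and 179.7, 160.2, 90.4 and 151 in WT brain. Hoxb4 read 1235, 869.9 and 330.0 in KO muscle and 1520.4, 475 and 786 in WT muscle, and 71.5, 247, 389.8 and 259 in KO brain and 213, 194, 101 and 179.7 in WT brain. The tissue difference of Hoxd4 was 2.53 ± 0.68 (adjusted p = 0.0138) on KO arrays and 2.54 ± 0.45 (adjusted p = 0.00177) on WT arrays, and that of Hoxb4 was 1.78 ± 0.66 (adjusted p = 0.0501) and 2.32 ± 0.43 (adjusted p = 0.00223). Without KO muscle array 1 or 2, the KO adjusted p of Hoxd4 was 0.0506 and 0.0523. Without KO muscle array 3 or Brain KO 3, that of Hoxb4 was 0.0222 and 0.0381. Hoxc4 read 1190.5, 1085 and 745 in KO muscle and 1306, 931 and 529.8 in WT muscle, and 209, 913, 1163 and 1018 in KO brain and 729, 548, 407 and 654 in WT brain. Hoxa4 read 140.0, 69.1 and 245 in KO muscle and 162, 187 and 167 in WT muscle, and 41.9, 126, 177 and 131 in KO brain and 119.7, 105, 66.3 and 96.8 in WT brain. Hoxa4 was higher in muscle on WT arrays by 0.86 ± 0.23 (adjusted p = 0.0142), while on KO arrays the tissues overlapped (0.34 ± 0.59). The tissues overlapped in both genotypes for Hoxc4, with differences of 0.52 ± 0.60 (adjusted p = 0.473) and 0.60 ± 0.34 (adjusted p = 0.185), the WT value being 0.95 (adjusted p = 0.0267) without WT muscle array 3.

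Hoxa2 and Hoxb2, which pattern hindbrain segments and the second pharyngeal arch, differed from each other in the tissue comparison. Hoxb2 read 611, 417 and 218 in KO muscle and 638, 233 and 452 in WT muscle, and 58.6, 137, 153 and 176 in KO brain and 115, 122, 88.1 and 91.8 in WT brain. It was higher in muscle by 1.65 ± 0.48 (adjusted p = 0.0188) on KO arrays and 1.98 ± 0.34 (adjusted p = 0.00158) on WT arrays, and its KO adjusted p was 0.0628 without KO muscle array 1 and 0.0568 without KO muscle array 2. Hoxa2 read 177, 77.1 and 83.9 in KO muscle and 129, 92.8 and 93.2 in WT muscle, and 62.9, 112, 176 and 156 in KO brain and 109, 114, 58.3 and 57.4 in WT brain. Its differences of -0.17 ± 0.43 (adjusted p = 0.745) and 0.37 ± 0.32 (adjusted p = 0.378) did not pass.

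Of group 3, Hoxa3, needed for the thymus and parathyroid, read 1258, 635 and 880.3 in KO muscle and 805, 866 and 715 in WT muscle, and 175, 382, 675 and 526 in KO brain and 398, 427, 246 and 329 in WT brain. Its difference was 1.18 ± 0.47 (adjusted p = 0.0651) on KO arrays, with an adjusted p of 0.0365 without Brain KO 3, and 1.21 ± 0.23 (adjusted p = 0.00258) on WT arrays. Hoxb3 read 185, 198 and 76.7 in KO muscle and 153, 80.8 and 79.1 in WT muscle, and 44.6, 121, 186 and 172 in KO brain and 101, 111, 52.7 and 75.8 in WT brain. The tissues overlapped for Hoxb3 in both genotypes, with differences of 0.30 ± 0.57 (adjusted p = 0.662) and 0.28 ± 0.34 (adjusted p = 0.547), while another Hoxb3 probe gave 0.62 and 1.29.

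Hoxa5 and Hoxc5 act together in the phrenic motor neurons that drive the diaphragm. Hoxa5 read 441, 176 and 329.7 in KO muscle and 436, 450.3 and 179 in WT muscle, and 44.5, 253, 386 and 323 in KO brain and 191, 166, 52.2 and 149 in WT brain. Hoxc5 read 99.6, 110.1 and 69.4 in KO muscle and 182, 72.0 and 25.4 in WT muscle, and 24.04, 109, 116 and 114 in KO brain and 59.0, 52.4, 28.9 and 54.7 in WT brain. Neither passed the tissue test, with 0.61 ± 0.76 (adjusted p = 0.511) and 1.39 ± 0.53 (adjusted p = 0.0558) for Hoxa5 and 0.25 ± 0.58 (adjusted p = 0.722) and 0.56 ± 0.62 (adjusted p = 0.497) for Hoxc5. Without WT muscle array 3 both passed on WT arrays, at 1.82 (adjusted p = 0.0226) for Hoxa5 and 1.28 (adjusted p = 0.0469) for Hoxc5.

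Set out by paralogue group, most members from group 6 on were called higher in muscle on WT arrays. In groups 1 to 5, 2 of 14 members were called higher and 1 lower on KO arrays, and 5 and 2 on WT arrays. In groups 6 to 8, 4 and 7 of 8 members were called higher and 0 lower. In groups 9 to 13, 9 of 16 were called higher and 1 lower on KO arrays, and 12 and 0 on WT arrays. Of these 16 members, 15 were above background on no brain array, so the sizes of their differences are not set against those of the earlier groups. Some calls also lacked measured muscle signal. Of the members called higher on WT arrays, Hoxa13 and Hoxd12 were above background on no array. Hoxc8, Hoxd10 and Hoxd11 were above it on 1 of 3 WT muscle arrays. The member of groups 9 to 13 called lower on KO arrays, Hoxc12, was above background on no array. By cluster, HoxA had 4 and 8 of 10 members called higher on KO and WT arrays, HoxB 2 and 5 of 10, HoxC 5 and 5 of 9 and HoxD 4 and 6 of 9. Over all genes, 31.3% were called higher and 28.1% lower on KO arrays, and 29.5% and 25.3% on WT arrays. On KO arrays, groups 1 to 5 and HoxB lay under the share called higher, and HoxA was close to it.

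**Figure D2:**
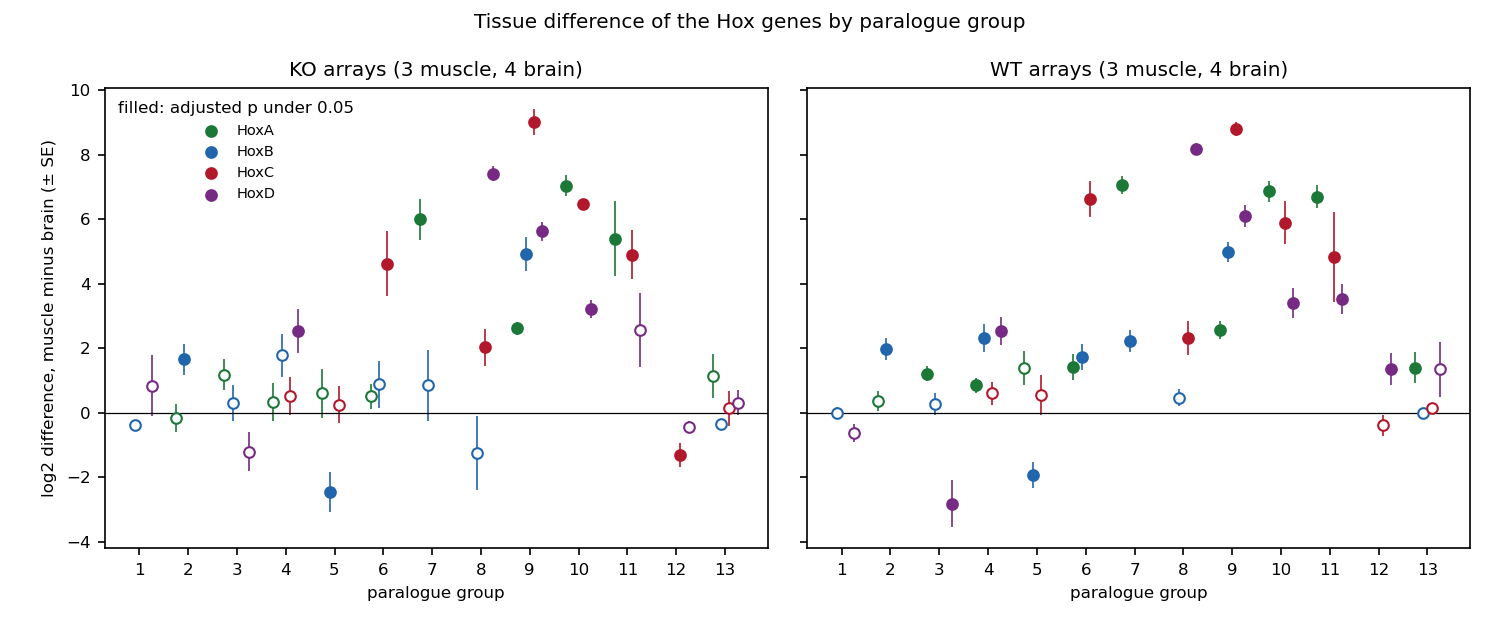
Log2 difference in level, muscle minus brain (± SE), of each Hox gene against its paralogue group, with KO arrays left, WT arrays right, colours for the 4 clusters and filled points for an adjusted p under 0.05. Hoxb5 in group 5 is a filled point below 0 in both panels, and the heights of points in groups 9 to 13 rest on brain values under background, for Hoxa9 on some brain arrays and for the other 15 genes on all. In groups 6 to 8 the same holds for Hoxc8 and Hoxd8 on all brain arrays, and for Hoxa6, Hoxa7, Hoxb7 and Hoxc6 on some.

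The median Hox gene varied more between arrays of a group than the median gene did. The median SD of the log2 level over members above background was 0.691 in KO muscle, 0.564 in WT muscle, 1.00 in KO brain and 0.461 in WT brain. Over all genes above background it was 0.290, 0.351, 0.151 and 0.197. Without Brain KO 1 the KO brain value was 0.286 for members, against 0.131 for all genes.

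In muscle no array was low or high for most Hox genes. Of the 22 members above background on all 6 muscle arrays, KO array 2 was lowest for 5 and highest for 5, KO array 3 was lowest for 8 and WT array 1 was highest for 7, and over all genes KO array 2 was the lowest for 29.7%. KO array 2 was highest of the 6 muscle arrays for Hoxb3, Hoxb7, Hoxb8, Hoxb9 and Hoxc9, and lowest for Hoxa2, Hoxa3, Hoxa4, Hoxa5 and Hoxa7, and, among genes measured on only some muscle arrays, for Hoxa11, Hoxd1, Hoxd11 and Hoxd13. WT array 1 was lowest for Hoxa9, Hoxa10 and Hoxc10, and, among genes measured on only some muscle arrays, for Hoxa6, Hoxc11 and Hoxd10. It was highest for Hoxb2, Hoxb4, Hoxb5, Hoxb6, Hoxc4, Hoxc6 and Hoxd4, and, among genes measured on only some muscle arrays, for Hoxc5 and Hoxc8. Genes that mark limb type varied between muscle arrays too. Of Tbx4, Tbx5 and Pitx1, only Tbx4 was low on both KO array 2 and WT array 1. Tbx4, a hindlimb gene, read 373, 135 and 423 in KO muscle and 109.6, 465 and 599 in WT muscle, with KO array 2 and WT array 1 low. Tbx5, a forelimb gene, read 177, 75.2 and 309 in KO muscle and 240.1, 184 and 189 in WT muscle, with KO array 2 low. Pitx1, which acts ahead of Tbx4 in the hindlimb, read 1185, 659 and 431 in KO muscle and 525, 719.5 and 500.1 in WT muscle, with array 3 lowest in either genotype. Lbx1, a gene of migrating limb muscle precursors, read 1750.0, 307 and 1788 in KO muscle and 593, 2036 and 1249 in WT muscle, with KO array 2 and WT array 1 low. Summed over 14 cartilage and bone genes, KO muscle arrays reached 734 to 9905, against 947 to 2077 on WT arrays, with 6 to 12 and 5 to 6 genes above background. The sums of 9 brown fat and adipocyte genes were 136030 to 289114 in KO muscle, against 116606 to 879701 in WT muscle, and WT array 1 held the highest. The part of these other tissues and of limb position in the Hox values was not tested.

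**Figure D3:**
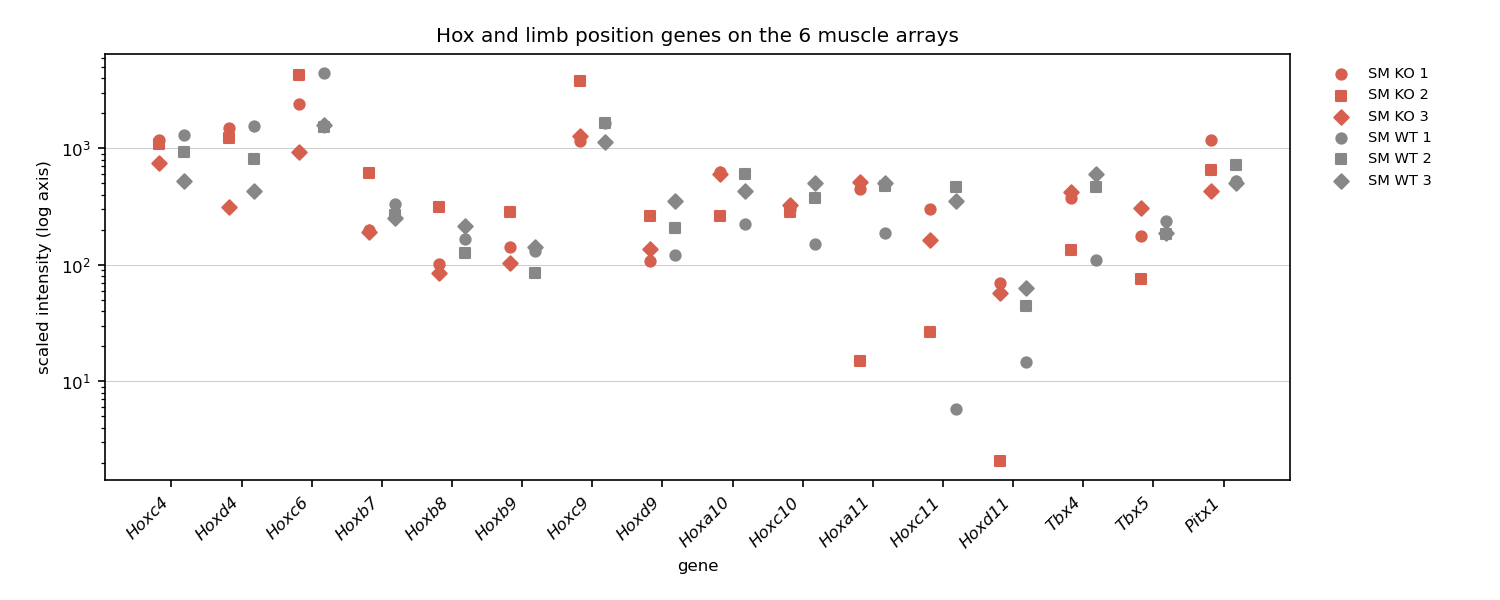
Scaled intensity (log axis) of 13 Hox genes and of Tbx4, Tbx5 and Pitx1 on the 6 muscle arrays, KO left (red) and WT right (grey) of each gene, with 1 symbol per array number. SM KO 2 lies at the bottom for Hoxa11 (15.1) and Hoxd11 (2.09) and at the top for Hoxb8 and Hoxb9, and SM WT 1 is the lowest for Hoxc11 (5.85).

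In brain 1 KO array stood apart in the Hox genes. Of the 13 members above background on all 8 brain arrays, Brain KO 1 was the lowest array for 12, where it was the lowest for 15.0% of all genes, and Hoxa2 was the exception. For these 13 members it lay a median of 1.37 below the mean of the 8 brain arrays on the log2 scale, and Brain WT 3 lay 0.740 below it. Brain KO 3 was highest for 10 of the 13 and Brain KO 4 for the other 3. Genes of hindbrain and spinal cord cells moved with this in part, and Lbx1 and En2 were chosen from their list after their values were seen. Lbx1, which in the nervous system marks dorsal hindbrain and spinal cord neurons, read 262, 689, 703 and 784 in KO brain and 338, 549.6, 233 and 323 in WT brain. Slc6a5, the transporter of glycinergic neurons, read 210.0, 279.6, 339.6 and 379 in KO brain and 295, 280.1, 232 and 222 in WT brain, and Slc18a3, of cholinergic neurons, read 568, 1123, 847 and 1107 in KO brain and 846, 754, 865 and 712 in WT brain. Brain KO 1 was not low for En2, a gene of the midbrain and cerebellum border, which read 1195, 914, 1197 and 1404 in KO brain and 943, 1226, 602 and 842 in WT brain. Summed over the 21 genes of the hindbrain and spinal cord list, KO brain arrays reached 5160 to 7128, against 4614 to 6460 on WT arrays, with Brain KO 1 and Brain WT 3 at the low ends. Of these 21 genes Brain KO 1 was the lowest array for 6 and Brain WT 3 for 7, and Brain WT 2 was the highest for 8. Brain KO 1 was the lowest for 0 of 16 forebrain and midbrain genes. The deposited 75th percentile of Brain KO 1, 1289, lay within the range of the brain arrays, 987 to 1398. The part of the brain region sampled in the Hox values was not tested.

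**Figure D4:**
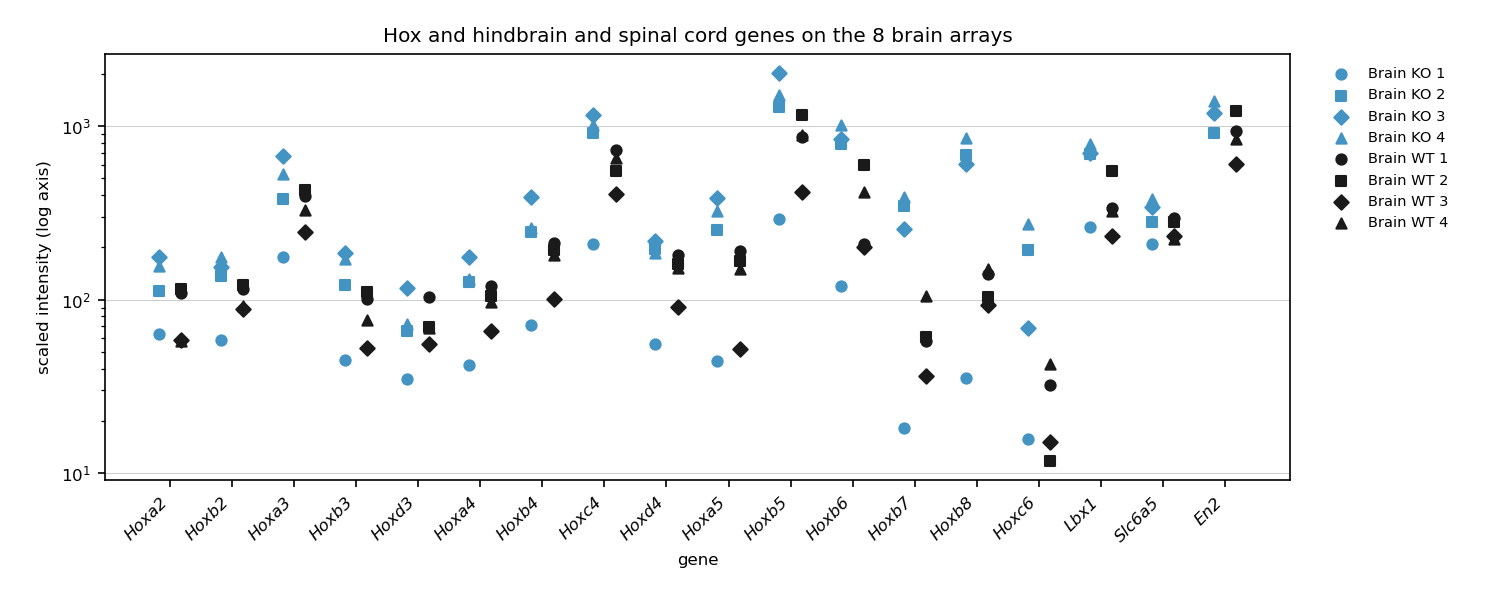
Scaled intensity (log axis) of 15 Hox genes and of Lbx1, Slc6a5 and En2 on the 8 brain arrays, KO left (blue) and WT right (black) of each gene, with 1 symbol per array number. Brain KO 1 (blue circles) is the lowest point for most Hox genes shown, 35.3 for Hoxb8 against 603 to 854 on the other KO arrays, but not for En2.

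The comparison of KO with WT, which the study was made for, called no Hox gene in either tissue at the threshold. In muscle 0 of 38 members passed, where 0% of all genes passed, and 2 members had an unadjusted p under 0.05, where 1.56% of all genes (341) did. Of the 38 members 18 were above 0 and 20 below, with a median log2 difference of -0.0357, against -0.027 over all genes. The members with the smallest p in muscle were Hoxd12 (-1.64 ± 0.57), Hoxc12 (-1.27 ± 0.47), Hoxd3 (1.49 ± 0.97), Hoxb1 (-0.30 ± 0.26) and Hoxb3 (0.51 ± 0.46), with an adjusted p of 1 for each. Hoxd12 and Hoxc12 were the only members whose KO and WT muscle arrays did not overlap, both lower in KO, where 1.86% of all genes were higher and 2.09% lower without overlap, and neither was above background on any array. The later members with clear muscle signal lay close to 0, at 0.29 ± 0.49 for Hoxc9, -0.20 ± 0.27 for Hoxd8, 0.26 ± 0.49 for Hoxa10 and 0.00 ± 0.45 for Hoxc10. Without KO muscle array 2, 0 members passed in muscle, where 0.00457% of all genes were called higher, and 2 members higher and 4 lower did not overlap, where 6.83% and 5.58% of all genes did not. The Hoxa11 difference was 0.44 ± 0.50 without that array and -1.23 ± 1.35 with it.

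In brain 0 of 38 members passed, where 0.0228% of all genes (5) did, and 3 members had an unadjusted p under 0.05, where 8.35% of all genes (1828) did. Above 0 were 32 of 38 members, with a median log2 difference of 0.198, against 0.0124 over all genes. Of the 32, 15 came from the 19 members above background on no brain array, whose signs carry no measured level, and 17 from the other 19. The median was 0.0247 with 50 added, 0.0651 without Brain KO 3, 0.117 without Brain KO 4, 0.120 without Brain WT 3, 0.0807 without Brain WT 3 and 4 together, and 0.397 without Brain KO 1. In groups 6 to 8 all 8 members were above 0 with a median of 1.04, and in HoxB all 10 were. Both counts include members below background on every brain array. The members with the smallest p were Hoxd8 (0.58 ± 0.18, below background), Hoxa6 (0.89 ± 0.34), Hoxa7 (1.20 ± 0.47), Hoxc6 (1.97 ± 0.88) and Hoxd1 (-0.49 ± 0.22, below background), each with an adjusted p of 0.58. KO and WT brain arrays did not overlap for Hoxa7 and Hoxd8, both higher in KO, where 1.41% of all genes were higher and 2.44% lower without overlap.

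Each array was left out in turn, and in brain the calls turned on Brain KO 1. Without it 1 member passed, where 0.00914% of all genes were called higher: Hoxb8 was higher in KO brain, with a log2 difference of 2.56 ± 0.21 (adjusted p = 0.0397), or 5.91-fold. With all 8 arrays Hoxb8 stood at 1.48 ± 0.95 (adjusted p = 0.609). Without Brain KO 1, 16 of 38 members were higher in KO brain with an unadjusted p under 0.05, where 4.26% of all genes were, and for 16 the remaining KO arrays lay above all WT arrays, where 4.07% of all genes did. The differences next to Hoxb8 were 2.43 ± 0.35 (adjusted p = 0.167) for Hoxb7, 1.26 ± 0.25 (adjusted p = 0.439) for Hoxc5, 2.79 ± 0.61 (adjusted p = 0.498) for Hoxc6 and 1.46 ± 0.40 (adjusted p = 0.532) for Hoxb6. These values are descriptions, because the array left out was low in these genes, so that leaving it out raises the KO level and narrows its spread by construction. Leaving out any other brain array gave 0 called members. Without Brain WT 3, which was low as well, 1 member had an unadjusted p under 0.05, and without Brain WT 3 and 4 together 0 had.

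**Figure D5:**
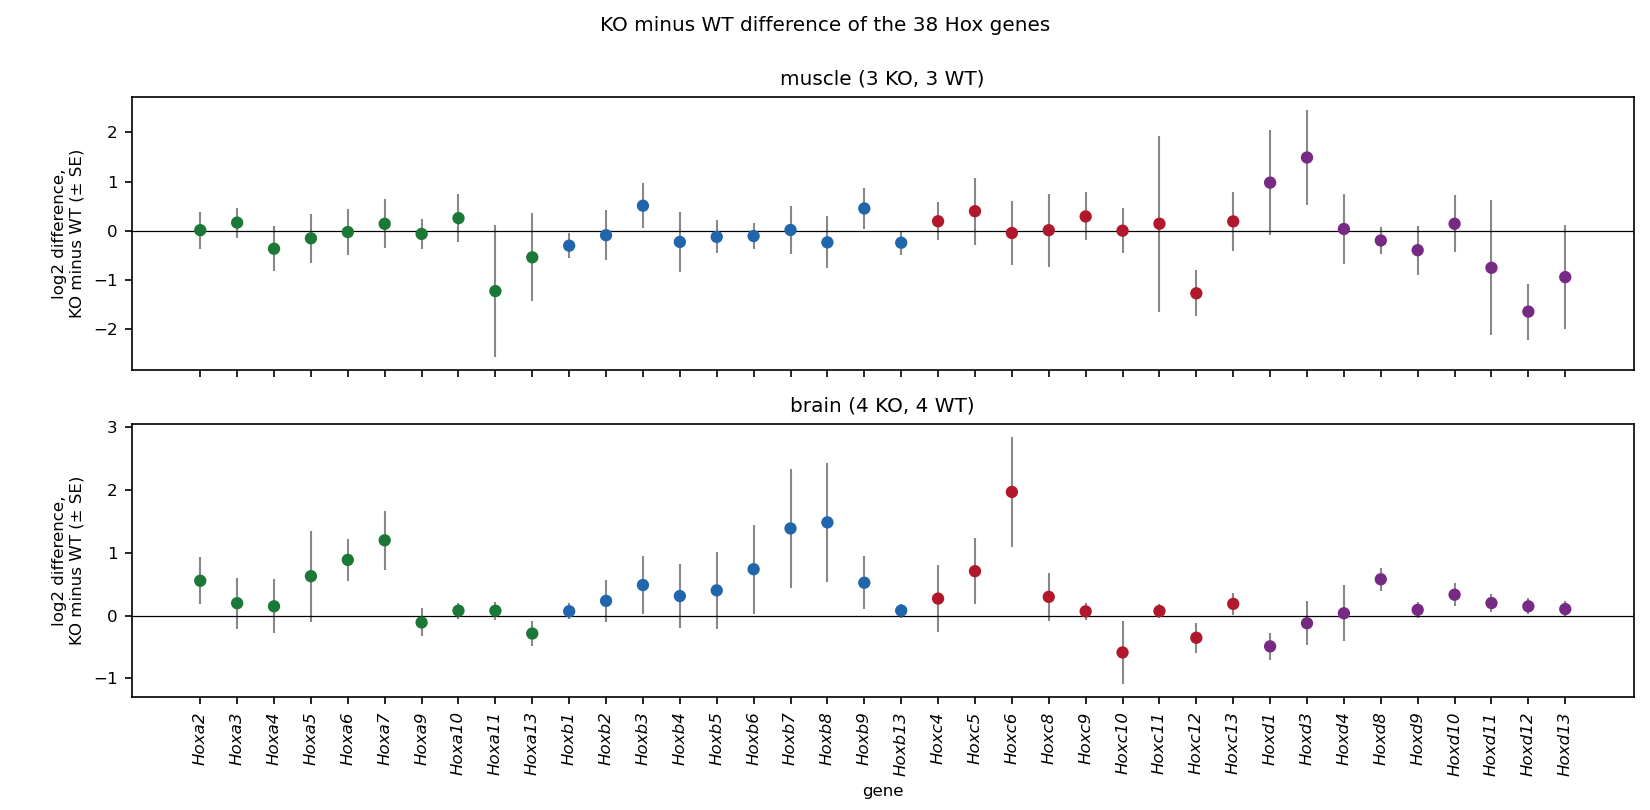
Log2 difference in level, KO minus WT (± SE), of the 38 Hox genes in muscle (top) and brain (bottom), with genes by cluster from left to right (HoxA green, HoxB blue, HoxC red, HoxD purple). No point passes the adjusted threshold, and in brain 32 of 38 points lie above 0, 15 of them from genes below background on every brain array.

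Whether the KO effect differed between tissues was tested as muscle effect minus brain effect in 1 model of all 14 arrays. No member passed, where 0.00914% of all genes (2) did, and 2 of 38 had an unadjusted p under 0.05 (Hoxd12 at -1.79 ± 0.55 and Hoxd8 at -0.78 ± 0.30), where 3.09% of all genes (676) did. Hoxd12 was above background on no array and Hoxd8 on no brain array, so these 2 values have no measured size. The members' median was -0.348, against -0.0269 over all genes, and all 8 members of groups 6 to 8 were below 0. Of these 8, Hoxc8 and Hoxd8 were above background on no brain array. Hoxb8 stood at -1.72 ± 1.26 (adjusted p = 1) and Hoxc6 at -2.01 ± 1.25 (adjusted p = 1).

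Hox proteins bind DNA with TALE homeodomain partners of the Pbx and Meis families, and 9 genes of this list were measured. On KO arrays 3 were higher and 4 lower in muscle, where 31.3% and 28.1% of all genes were. On WT arrays 4 were higher and 5 lower, where 29.5% and 25.3% of all genes were. Meis2 read 879.9, 1094 and 361 in KO muscle and 845, 497 and 652 in WT muscle, against 9423, 8289.6, 9165 and 7103 in KO brain and 8648, 6942, 5988 and 5683 in WT brain, and was lower in muscle, with differences of -3.59 ± 0.37 (adjusted p = 0.000103) on KO arrays and -3.37 ± 0.24 (adjusted p = 1.42e-05) on WT arrays. Pbx3 was lower in muscle too, with differences of -3.18 ± 0.14 (adjusted p = 1.55e-06) on KO arrays and -3.21 ± 0.25 (adjusted p = 2.04e-05) on WT arrays, and Pbx4 was at least 4.14-fold and at least 4.23-fold lower. Meis1 lay closer between tissues, at -0.47 ± 0.23 (adjusted p = 0.118) and -0.58 ± 0.20 (adjusted p = 0.0404). Pbxip1, which binds Pbx proteins and blocks their action, was higher in muscle by 3.03 ± 0.23 (adjusted p = 1.97e-05) and 2.87 ± 0.28 (adjusted p = 6.84e-05). By limma, 0 genes of this list were called in either KO comparison, and 0 had an unadjusted p under 0.05.

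Of 4 noncoding RNAs of the Hox clusters, 3 were higher in muscle on KO arrays and 3 on WT arrays, where 31.3% and 29.5% of all genes were. Hoxaas3, an RNA of the HoxA cluster, read 169, 348 and 165 in KO muscle and 213, 272 and 323 in WT muscle, and was at least 6.82-fold higher than in brain on KO arrays and at least 9.02-fold higher on WT arrays. Hoxa11os, antisense to Hoxa11, read 685, 71.0 and 824 in KO muscle and 326, 672 and 1469 in WT muscle, with KO array 2 low as for Hoxa11, and 10.9 to 24.2 in KO brain and 19.5 to 23.9 in WT brain. Hoxd3os1 was at least 2.497-fold higher in muscle on KO arrays. It was called higher on WT arrays too, but lay below background on WT muscle array 3, so no bound is given there. Hottip, from the end of HoxA near Hoxa13, lay at 1.95 to 2.73 in KO muscle, 2.52 to 3.62 in WT muscle, 2.68 to 3.53 in KO brain and 2.499 to 3.40 in WT brain, all below background.

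Of 22 limb position genes, 14 were higher and 4 lower in muscle on KO arrays, and 13 and 4 on WT arrays, where 31.3% and 28.1% of all genes were on KO arrays and 29.5% and 25.3% on WT arrays. Tbx4 was at least 8.85-fold higher in muscle on KO arrays and at least 10.6-fold higher on WT arrays, and Tbx5 at least 5.11-fold and at least 6.91-fold. Pitx1 was higher by 3.25 ± 0.51 (adjusted p = 0.000999) and 3.00 ± 0.51 (adjusted p = 0.00145), and Meox2, a homeobox gene of limb muscle, was at least 161-fold and at least 146-fold higher. Tbx15, which acts in the limb skeleton and in glycolytic muscle fibres, was higher by 7.12 ± 0.27 (adjusted p = 7.32e-07) and 7.09 ± 0.27 (adjusted p = 5.21e-07). By limma, 0 of the 22 were called in either KO comparison, and 0 in muscle and 4 in brain had an unadjusted p under 0.05, where 1.56% and 8.35% of all genes had.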

How the data were processed

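RNA of 6 muscle and 8 brain samples was hybridised, 1 sample an array, to 1-colour Agilent arrays with Cy3, and read with Agilent Feature Extraction, per the submitters' processing notes, which give no version. The deposited values are linear intensities of 55681 probes with no detection flags. Their 75th percentiles differ between arrays, so they were not scaled to a common level, and how background was handled is not given in the sources used here. By gene symbol, the platform annotation named 30626 probes with 1 gene symbol each and none with several, and 25055 were not listed. For each of 21893 genes the probe with the highest mean was used. Blank cells numbered 129, none of them in a Hox gene.

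Each log2 intensity was reduced by its array's 75th percentile over named probes. Tissue comparisons within a genotype and KO comparisons within a tissue were fitted with limma 3.58.1 in R 4.3.3 (lmFit and eBayes, 2-sided, no covariate), with Benjamini-Hochberg adjustment over all genes and a threshold of 0.05. The fits were tested on simulated data. The number of arrays limits the precision, and no depth applies. Replicate numbers were not taken as pairs, since the labels do not state a pairing. Same-numbered KO and WT arrays deviated with correlations of 0.166, -0.0845 and 0.197 in muscle and 0.0391, -0.0451, 0.0788 and 0.1 in brain. Different numbers gave -0.277 to 0.124 in muscle and -0.106 to 0.0616 in brain. KO arrays 1 and 3 of muscle and 1, 3 and 4 of brain correlated best with the WT array of their own number, and KO array 2 of either tissue did not. These small correlations do not settle whether the numbers mark pairs, so a block by number was fitted as an alternative. The genes named are all 38 members, up to 4 genes of a list by the smallest p between tissues on WT arrays, and Tbx4, Tbx5, Pitx1, Meis1, Egr2 and Cdx2 in any case. Members, lists and tests were chosen with earlier results of these data known. Some genes of the lists are not analysed here.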

Additional observations from a re-analysis of the deposited data

Results flagged for a closer look

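In 54 groups of 4 brain arrays (26 Hox genes and Celf1, in either genotype), 10 had an array whose gap to the nearest other array, as a share of the range of the group, exceeded Dixon's 95% limit of 0.829. Chance gives about 1 in 20 for independent groups. These groups are genes read on the same arrays, some of them below background on every brain array, so the count is not set against that rate. Brain KO 1 was the array in 7 of the 10, low each time: Hoxa9 (0.84), Hoxb6 (0.88), Hoxb7 (0.861), Hoxb8 (0.891), Hoxc4 (0.859), Hoxc5 (0.959) and Hoxd4 (0.885). On that array Hoxa9 and Hoxb7 lay below background. Brain WT 3 was low for Hoxc5 (0.834). Brain WT 2 was high for Hoxa6 (0.829) and Hoxc10 (0.847), both below background there.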

How the results depend on the processing

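The tissue comparison called 14 to 21 Hox genes on KO arrays and 20 to 27 on WT arrays over 8 alternatives each (scaling, an added 50, probe choice, a filter on dim genes, the model, its variance and the block), against 17 and 26 in the report, and 17 to 19 and 24 to 28 when 1 array was left out. No Hox gene was called in the KO comparisons or their difference under any alternative, except 1 (0 to 1) in brain without Brain KO 1. With background at the 99th percentile, 11, 10, 4 and 4 members were above it in KO muscle, WT muscle, KO brain and WT brain. Counts over all genes were unstable. In KO muscle, 0 became 1 with 50 added and 9 in 1 model of all 14 arrays, and 0 to 1 with 1 array left out. In KO brain, 5 became 3 without scaling, 8 with genes above background only, 2 in 1 model, 0 with the replicate block and 0 without Brain WT arrays 3 and 4 together, and 1 to 9 with 1 array left out. The difference between tissues, 2, became 1 with 50 added and 1 with the replicate block, and 1 to 8 with 1 array left out, the 8 without SM KO 2. The share called higher in KO brain was 60%, against 33.3% without scaling, 40% with quantile scaling and 16.7% with 50 added. Celf1 in brain had an adjusted p of 0.23 with the block and 0.08 without Brain WT arrays 3 and 4. The block changed no call of a Hox gene between KO and WT, and it left 16 and 24 called between tissues on KO and WT arrays. Most KO arrays correlated best with the WT array of their own number, and KO array 2 of either tissue did not. Without scaling the median of all genes moved to -0.171 between tissues on WT arrays, 0.137 in KO muscle and 0.118 for the difference between tissues; with 50 added it was 0.188 between tissues on WT arrays.

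Signs turned in tissue differences near 0. With 50 added these were Hoxd12 (0.0367), Hottip (0.0393) and Cdx2 (0.0126) on KO arrays and Hoxc12 (0.0408) on WT arrays, and without scaling Hottip (-0.161) and Cdx2 (-0.173) on WT arrays. With 1 array left out, the ranges on KO arrays were -0.553 to 0.0469 for Hoxa2, -0.0995 to 0.817 for Hoxa4, -0.101 to 0.978 for Hoxa5, -0.152 to 0.742 for Hoxb3, -0.192 to 1.28 for Hoxb7, -0.0550 to 0.771 for Hoxc4, -0.307 to 0.450 for Hoxc5 and -0.642 to 0.0697 for Cdx2. Brain KO 1 was the array left out at the low end for Hoxa4, Hoxa5, Hoxb3, Hoxb7, Hoxc4, Hoxc5 and Cdx2. On WT arrays the ranges were -0.0324 to 0.442 for Hoxb3, -0.138 to 1.28 for Hoxc5, -0.0808 to 0.181 for Hottip and -0.0931 to 0.165 for Cdx2, the low ends without SM WT 1. Over the genes named and their alternatives, 22 tissue calls were gained and 9 lost on KO arrays, and 9 gained and 33 lost on WT arrays. The causes were not tested. Signal under background, which the deposited values do not mark, limits what low intensities show.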

Other observations

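Of 15 ParaHox and cluster neighbour genes, 3 were higher and 8 lower in muscle on KO arrays, and 3 and 8 on WT arrays, where 31.3% and 28.1% of all genes were on KO arrays and 29.5% and 25.3% on WT arrays. Evx1, next to HoxA and a gene of ventral spinal cord neurons, read 3.16, 5.52 and 2.80 in KO muscle and 3.90, 2.96 and 3.09 in WT muscle, against 57.6, 73.8, 106 and 105 in KO brain and 79.6, 72.5, 58.7 and 51.8 in WT brain. Dlx1, of the Dlx pair near HoxD and a gene of forebrain interneurons, was at least 32.1-fold lower in muscle on KO arrays and at least 28.8-fold lower on WT arrays. Evx2, next to HoxD, was higher in muscle, at 514, 486 and 574 in KO muscle and 586, 529 and 712 in WT muscle, against 182, 267, 215 and 199.8 in KO brain and 235, 173, 232 and 212 in WT brain. Dlx3, near HoxB, was higher too, by 2.68 ± 0.14 (adjusted p = 2.99e-06) on KO arrays and 3.10 ± 0.23 (adjusted p = 1.51e-05) on WT arrays. Evx2 was named after its values were seen. Cdx2, a ParaHox gene that acts ahead of Hox genes in the embryo, lay at 2.54 to 3.57 in KO muscle, 2.48 to 3.55 in WT muscle, 2.65 to 11.6 in KO brain and 2.46 to 3.35 in WT brain, below background on every array.

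Of 25 Polycomb and trithorax genes, which keep Hox genes off or on, 7 were higher and 6 lower in muscle on KO arrays, and 7 and 3 on WT arrays, shares near or under those of all genes. Cbx8, a subunit of Polycomb repressive complex 1, read 172, 133 and 113 in KO muscle and 179, 139 and 182 in WT muscle, against 3.18 to 3.92 in KO brain and 2.98 to 4.06 in WT brain. Cbx7, another such subunit, was higher in muscle by 1.40 ± 0.21 (adjusted p = 0.000859) on KO arrays and 1.95 ± 0.22 (adjusted p = 0.000142) on WT arrays. Of 22 genes of the retinoic acid, FGF and GDF11 signals that set Hox borders, 6 were higher and 7 lower in muscle on KO arrays, and 7 and 7 on WT arrays. These shares were close to those of all genes, 31.3% and 28.1% on KO arrays and 29.5% and 25.3% on WT arrays. Aldh1a3, which makes retinoic acid, was higher by 4.45 ± 0.38 (adjusted p = 3.62e-05) and 3.61 ± 0.29 (adjusted p = 2.45e-05), and Gdf11, which acts at the trunk to tail transition, was lower, with differences of -1.90 ± 0.34 (adjusted p = 0.00208) and -2.14 ± 0.25 (adjusted p = 0.000191). Egr2, a hindbrain segment gene that is also used in Schwann cells and fibroblasts, was higher in muscle by 3.93 ± 0.46 (adjusted p = 0.000196) and 3.27 ± 0.59 (adjusted p = 0.00194). By limma, 0 genes of these 3 lists were called in either KO comparison, and 1 in muscle and 5 in brain had an unadjusted p under 0.05.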
